A study of Mus musculus with 10 samples.

Results

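The 10 genes described here, Aqp8, Slc26a3, Slc9a3, Car1, Car4, Scnn1a, Scnn1b, Scnn1g, Cftr and Guca2a, encode channels, exchangers, enzymes and a peptide hormone that move ions and water across the colon epithelium. They were chosen by name as surface colonocyte transport genes, and they make up 10 of the 56691 genes in the deposited table. Each name matched 1 row, and all 10 were among the 16545 genes kept by the filter on low counts. RNA sequencing was performed on poly(A)-selected RNA from the colon of 10 male C57/BL6 mice aged 8 weeks, 5 per group. The DSS group drank 3% dextran sulfate sodium (DSS), a chemical that injures the colon lining, for 7 days. The ceAF group drank the same for 7 days and then received 15 mL/kg chick early amniotic fluid (ceAF) by gavage for 10 days. Whether the DSS mice were given a vehicle, on which day the colon for sequencing was collected and from which stretch are not given in the sources used here. No untreated mice are among the samples, so the comparison asks how colon after DSS and ceAF differed from colon after DSS alone. Between 14676471 and 19901549 reads were counted on genes per mouse. Levels of a gene are compared between mice as CPM, its read count relative to the library total after TMM scaling, and levels of different genes are compared only as FPKM, which also divides by gene length.

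The colon absorbs salt and water at its surface. The sodium-hydrogen exchanger NHE3 (Slc9a3) and the chloride-bicarbonate exchanger DRA (Slc26a3) together take up sodium chloride, the epithelial sodium channel ENaC (Scnn1a, Scnn1b and Scnn1g) takes up sodium in the distal colon under control of aldosterone, and aquaporin 8 (Aqp8) is a channel for water. Carbonic anhydrases (Car1 in the cytoplasm, Car4 on the membrane) convert carbon dioxide and water to bicarbonate and protons, the chloride channel CFTR serves secretion from the crypts, and guanylin (Guca2a) is a peptide that acts on the receptor guanylate cyclase C.

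Markers of the labelled tissue were present in every library. The 10 epithelial markers summed to 13268 to 19041 CPM per mouse, with Krt8 the most abundant. The 12 surface colonocyte markers summed to 26239.9 to 43592 CPM, with Lypd8 the most abundant. The 6 squamous and anal markers summed to only 2.95 to 11 CPM, with Krt10 the most abundant at a mean of 1.16 FPKM, and 3 of the 6 fell below the filter. Several libraries stood apart. ceAF-1 had the lowest sum of the 6 distal Hox genes, 22.7 CPM against 98.7 to 449 in the other 9 mice, and the highest sum of the small intestinal markers, 1362 against 75.4 to 725 CPM. In DSS-1 the 9 leukocyte markers summed to 1793 CPM against 75.6 to 402 in the others, with S100a9 the most abundant. DSS-5 had the lowest Car1 and Guca2a of the 10 mice. Mitochondrial genes took 9.66% of reads in ceAF-1 and 9.74% in ceAF-5, against 4.53% to 7.24% in the other 8 mice, and their part in the results was not tested. Because the samples are bulk tissue, fewer cells of a type and less RNA per cell cannot be told apart in any value below.

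No difference between the ceAF and DSS groups was found for any of the 10 genes. In the quasi-likelihood test of edgeR 0 of the 10 had an unadjusted p under 0.05, beside 6.93% of all genes tested (1146 of 16545), and 0 of the 10 passed after Benjamini-Hochberg adjustment, beside 0% of all genes. Their adjusted p-values ran from 0.739 to 0.999. DESeq2's Wald test called 30 genes after adjustment and limma-trend on FPKM 0 with the filter and 1 without it. All of these gave 0 of the 10 at an unadjusted p under 0.05. The share of all genes at that limit was 7.69% in DESeq2's Wald test. With limma-trend it was 6.1% on log2(FPKM + 1), 5.98% on log2(FPKM + 0.1) and 5.02% without the filter. Leaving out 1 mouse at a time gave 0 to 2 of the 10 at that limit: Cftr without DSS-2 or ceAF-2, and Aqp8 and Guca2a without ceAF-1, where 6.3%, 7.05% and 11.2% of all genes were at that limit. The fitted level was higher after ceAF for 5 and lower for 5, and the median of their log2 fold changes was −0.031, beside 0.0076 over all genes tested. That median was positive, up to 0.21, without DSS-4, DSS-5, ceAF-1, ceAF-4 or ceAF-5, and it was −0.22 with the replicate block and with limma-trend on log2(FPKM + 0.1). The groups overlapped in each of the 10, whereas they did not overlap in 1.24% of all genes tested. A p that misses the threshold does not show equal levels, and the 95% intervals below give the differences that remain possible.

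The genes differed widely in level and in how much they varied. By median FPKM over the 10 mice, Car1 (1764) was followed by Guca2a (923), Car4 (501) and Aqp8 (441). The exchangers Slc26a3 (163) and Slc9a3 (148) came next, then Scnn1a (28.9), Cftr (14.6), Scnn1b (5.46) and Scnn1g (3.0). The ranges over mice overlapped between all neighbours in this order. Within a mouse, Aqp8 exceeded Slc26a3, Slc9a3 exceeded Scnn1a and Cftr exceeded Scnn1b in 10 of 10 mice, whereas Car4 exceeded Aqp8 in only 6 of 10. The within-group SD of log2 CPM placed Car1 at percentile 99.6 and Scnn1g at percentile 98.7 of all genes tested, and Cftr at percentile 18.6. The highest mouse had 104 times the Car1 CPM of the lowest, 33.8 times the Scnn1g CPM and 1.58 times the Cftr CPM.

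**Figure D1:**
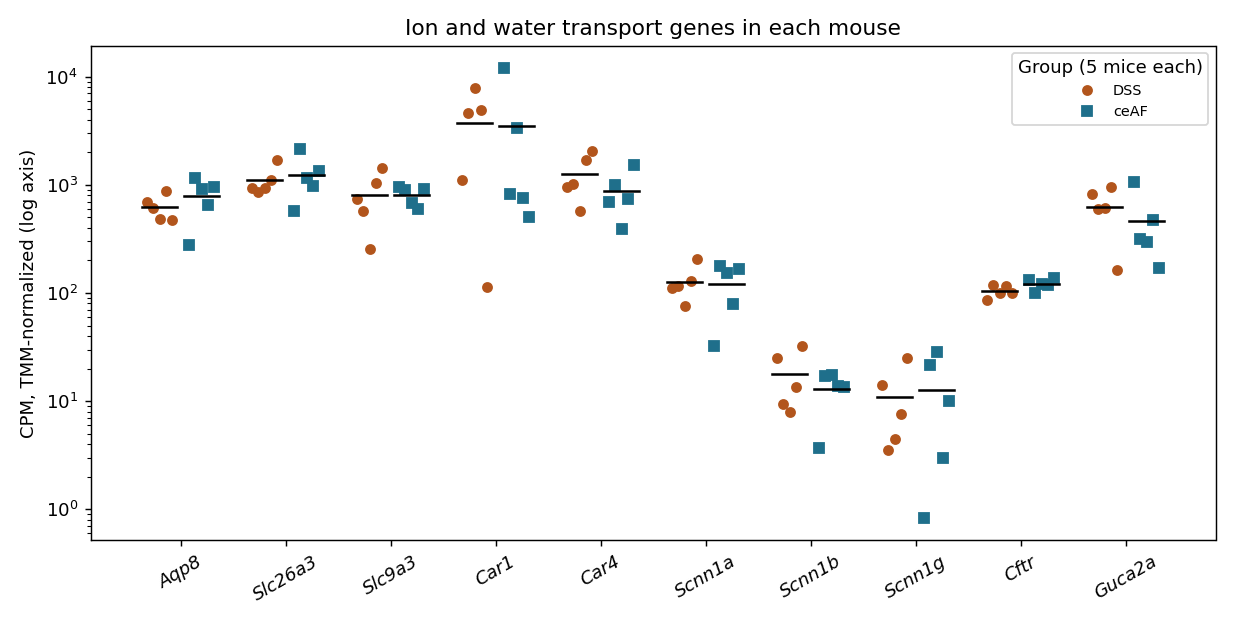
Level of each of the 10 transport genes in each mouse, as TMM-normalized CPM on a log axis, with circles for the 5 DSS mice, squares for the 5 ceAF mice (in order of replicate number within a gene) and a black line at each group's mean CPM. The groups overlap for every gene, Car1 spreads from 115 to 11922 CPM, and Cftr stays between 86.5 and 137 CPM.

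Aqp8, the water channel, is deposited at chromosome 7, positions 123061514 to 123067227, on a build that the table does not name. Aqp8 was at 689, 609, 486, 881 and 478 CPM in DSS-1 to DSS-5, and at 277, 1163, 917, 649.7 and 961 CPM in ceAF-1 to ceAF-5. ceAF-1 was the lowest of all 10 mice and ceAF-2 the highest, so the ceAF mice spanned all DSS mice. The means were 629 ± 167 CPM in the DSS group and 793 ± 342 CPM in the ceAF group (SD, n = 5 each). The log2 fold change was 0.34 ± 0.33 (SE), with a 95% interval of −0.39 to 1.06 and an adjusted p of 0.884 (edgeR quasi-likelihood, Benjamini-Hochberg), and an exact two-sided permutation test over the 252 assignments of the mice gave p = 0.587. Without ceAF-1 the log2 fold change was 0.55 with an unadjusted edgeR p of 0.0260 and an adjusted p of 0.417, where the adjusted p ranged from 0.417 to 1.00 over its 20 alternatives.

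Neither exchanger for sodium chloride uptake passed the test. Slc26a3 was at 938, 849.8, 943, 1107 and 1710.2 CPM in DSS-1 to DSS-5, and at 576, 2164, 1153, 979 and 1351 CPM in ceAF-1 to ceAF-5. ceAF-1 was again lowest and ceAF-2 highest, and the groups overlapped. The means of Slc26a3 were 1109.6 ± 348 CPM in the DSS group and 1245 ± 588 CPM in the ceAF group (SD, n = 5 each), and the log2 fold change was 0.17 ± 0.32 (SE) with a 95% interval of −0.54 to 0.87 (exact permutation p = 0.825). Slc9a3 ranged from 254 to 1437 CPM in the DSS group, with DSS-3 lowest and DSS-5 highest, and from 599.6 to 963 CPM in the ceAF group, so the DSS mice spread more widely around nearly the same mean. Its means were 808 ± 450.3 CPM in the DSS group and 809.5 ± 162 CPM in the ceAF group (SD, n = 5 each). The log2 fold change of Slc9a3 was 0.0023 ± 0.37 (SE), with a 95% interval of −0.81 to 0.81 (exact permutation p = 0.730). Its sign changed with DESeq2's size factors, in DESeq2's Wald test and in 6 of the 10 fits that left out 1 mouse (range −0.22 to 0.33). The sign for Slc26a3 changed without ceAF-2 (−0.11).

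Car1, the cytoplasmic carbonic anhydrase, varied more between mice than between groups. Car1 was at 1118, 4653, 7774, 4956 and 115 CPM in DSS-1 to DSS-5, and at 11922, 814, 3344, 753 and 505 CPM in ceAF-1 to ceAF-5. The lowest mouse and 3 of the 4 highest belonged to the DSS group, and the highest of all was ceAF-1. As a share of all counted reads, Car1 took 0.0116% in DSS-5 and 1.06% in ceAF-1. The means were 3723 ± 3106 CPM in the DSS group and 3468 ± 4865 CPM in the ceAF group (SD, n = 5 each). The log2 fold change was −0.10 ± 1.04 (SE), its 95% interval ran from −2.40 to 2.2, and the exact permutation test gave p = 0.921. Without ceAF-1 the log2 fold change was −1.46, with an unadjusted edgeR p of 0.157, and without DSS-3 it was 0.37. The sign changed in 6 of the 10 fits that left out 1 mouse, those without DSS-2, DSS-3, DSS-4, ceAF-2, ceAF-4 or ceAF-5.

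Car4, the membrane-bound carbonic anhydrase, did not follow Car1. Car4 was at 953, 1027, 567, 1681 and 2054 CPM in DSS-1 to DSS-5, and at 696, 993, 389, 747 and 1524 CPM in ceAF-1 to ceAF-5. DSS-5, the mouse with the least Car1, had the most Car4, and ceAF-3 had the least. The means were 1256 ± 599 CPM in the DSS group and 870 ± 424 CPM in the ceAF group (SD, n = 5 each). The log2 fold change was −0.53 ± 0.40 (SE), with a 95% interval of −1.40 to 0.34 and an exact permutation p of 0.286. Over the fits that left out 1 mouse, it ranged from −0.83 without ceAF-5 to −0.27 without DSS-5. With the replicate block the unadjusted edgeR p of Car4 was 0.0230 and the adjusted p 0.972, which ranged from 0.601 to 1.00 over its 20 alternatives. The ratio of Car1 to Car4 FPKM spread from 0.0880 in DSS-5 and 0.522 in ceAF-5 to 21.6 in DSS-3 and 27.0 in ceAF-1. Car1 was above Car4 in 8 of the 10 mice.

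The ENaC subunits varied together. Scnn1a was at 111, 116, 75.9, 129 and 206 CPM in DSS-1 to DSS-5, and at 32.5, 179, 152, 79.6 and 166 CPM in ceAF-1 to ceAF-5. Scnn1b was at 24.9, 9.44, 8.02, 13.6 and 32.6 CPM in DSS-1 to DSS-5, and at 3.66, 17.1, 17.3, 13.8 and 13.5 CPM in ceAF-1 to ceAF-5. Scnn1g was at 14, 3.55, 4.49, 7.62 and 25.2 CPM in DSS-1 to DSS-5, and at 0.839, 21.6, 28.4, 2.98 and 10.01 CPM in ceAF-1 to ceAF-5. ceAF-1 was the lowest mouse for each subunit. DSS-5 was the highest for Scnn1a and Scnn1b and ceAF-3 the highest for Scnn1g, and the groups overlapped throughout. The log2 fold changes were −0.065 ± 0.41 (SE) for Scnn1a, −0.43 ± 0.46 (SE) for Scnn1b and 0.22 ± 0.80 (SE) for Scnn1g, with 95% intervals of −0.97 to 0.84, −1.45 to 0.58 and −1.53 to 1.98. Exact permutation tests gave p = 0.714, 0.50 and 0.794. Over the fits that left out 1 mouse, Scnn1b ranged from −0.61 without DSS-3 to −0.072 without DSS-5. The sign for Scnn1g changed with limma-trend on FPKM (−0.24 to −0.029) and without ceAF-2 (−0.031) or ceAF-3 (−0.30), and the sign for Scnn1a without DSS-5 (0.19), ceAF-1 (0.18) or ceAF-4 (0.061).

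Scnn1g and Scnn1b lie near each other on the plus strand of chromosome 7 as deposited, at positions 121333702 to 121367698 and 121464261 to 121517737. Per gene length, Scnn1a was the most abundant subunit in 10 of 10 mice, at 7.02 to 50.5 FPKM. Scnn1b was at 1.24 to 12.6 FPKM and Scnn1g at 0.250 to 9.21 FPKM, and Scnn1b exceeded Scnn1g in 8 of 10 mice, all but ceAF-2 and ceAF-3. The ratio of Scnn1a to Scnn1g FPKM ran from 3.86 in ceAF-3 to 28.1 in ceAF-1. In ceAF-1 the Scnn1g value rested on only 11 reads. Scnn1b overlaps Cog7, looked up after the values were seen, on the opposite strand, and Cog7 had 4120 reads over all mice against 2612 for Scnn1b. Whether the counting used strand is not given in the sources used here, so reads from a stretch shared by both genes cannot be assigned with certainty. Cog7 was at 20.9 to 28.1 CPM and Scnn1b at 3.66 to 32.6 CPM.

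**Figure D2:**
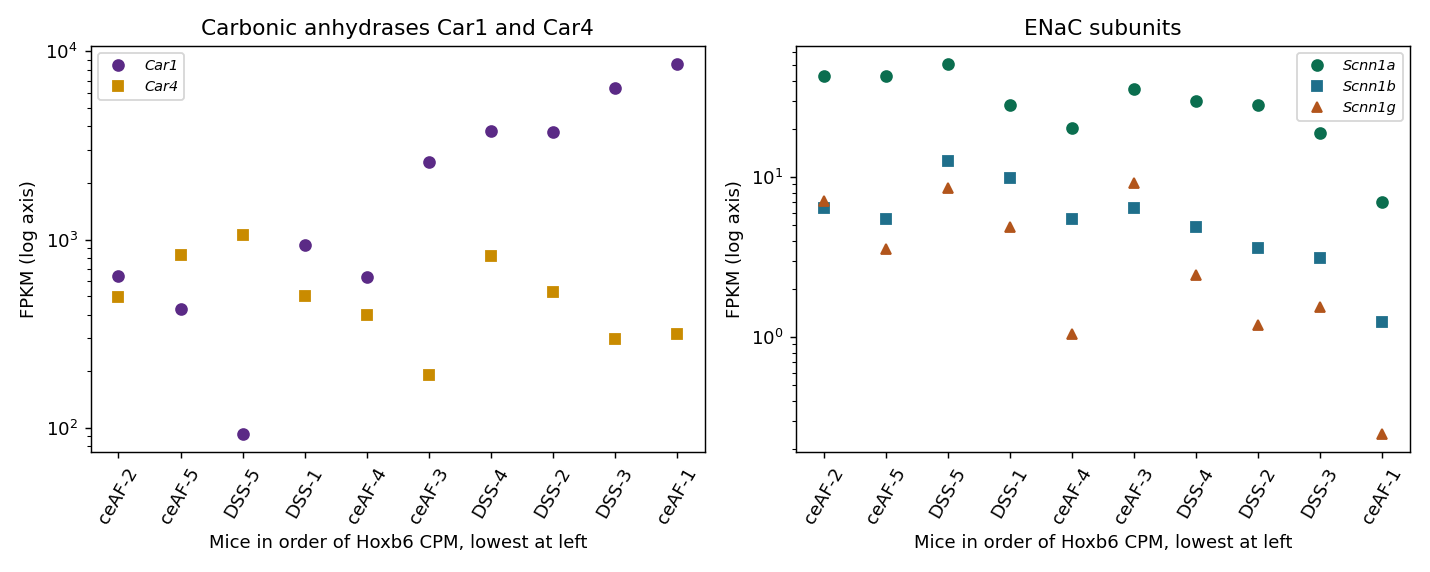
FPKM of the carbonic anhydrases Car1 and Car4 (left) and of the ENaC subunits (right) in each mouse, with 1 point per gene and mouse, on log axes and with the mice in order of Hoxb6 CPM from the lowest at left. Car1 is highest in ceAF-1, at 8530.1 FPKM, where each ENaC subunit has its lowest value.

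Cftr, the chloride channel of secretion, varied least. Cftr was at 86.5, 118, 100.3, 115 and 99.3 CPM in DSS-1 to DSS-5, and at 133, 100.1, 121, 119 and 137 CPM in ceAF-1 to ceAF-5. Although 4 ceAF mice exceeded every DSS mouse, ceAF-2 lay among the DSS mice, so the groups overlapped. The means were 104 ± 12.9 CPM in the DSS group and 122 ± 14.4 CPM in the ceAF group (SD, n = 5 each). The log2 fold change was 0.23 ± 0.12 (SE), with a 95% interval of −0.024 to 0.49, an unadjusted p of 0.0713 and an adjusted p of 0.739 (edgeR quasi-likelihood, Benjamini-Hochberg). The exact permutation test gave p = 0.0556, where the smallest p that 5 against 5 mice allow is 0.00794. Its unadjusted edgeR p was 0.0449 without DSS-2 and 0.0228 without ceAF-2. The sign was positive in all 20 alternatives, and the adjusted p ranged from 0.544 to 1.00 over them.

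Guca2a was at 819, 595, 605, 957 and 163 CPM in DSS-1 to DSS-5, and at 1061, 315, 297, 477 and 168 CPM in ceAF-1 to ceAF-5. The lowest mice for Guca2a, the guanylin precursor, were DSS-5 and ceAF-5, and the highest were ceAF-1 and DSS-4. The means were 628 ± 301 CPM in the DSS group and 464 ± 352 CPM in the ceAF group (SD, n = 5 each), with a log2 fold change of −0.44 ± 0.52 (SE), a 95% interval of −1.58 to 0.71 and an exact permutation p of 0.437. Without ceAF-1, the log2 fold change of Guca2a was −0.996 with an unadjusted edgeR p of 0.0489 and an adjusted p of 0.447, which over its 20 alternatives ranged from 0.447 to 1.00. Leaving out DSS-5 in place of ceAF-1 gave −0.67. Of the other genes of guanylin signaling, the receptor gene Gucy2c was at 184 to 406 CPM, a much narrower range. The kinase gene Prkg2 was at 3.60 to 89.5 CPM, a wider one.

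Hox genes keep positional identity along the gut, with anterior Hox genes expressed more proximally and the most posterior ones more distally. Hoxb6 served as a marker of position along the colon, although its relation to position was not tested in these samples. Hoxb6 was at 1.27, 25.3, 36.6, 22.4 and 0.960 CPM in DSS-1 to DSS-5, and at 91.0, 0.846, 17.4, 2.98 and 0.880 CPM in ceAF-1 to ceAF-5. The mice fell into separate clusters. ceAF-3, DSS-4, DSS-2, DSS-3 and ceAF-1 lay between 17.4 and 91.0 CPM, and ceAF-2, ceAF-5, DSS-5, DSS-1 and ceAF-4 between 0.846 and 2.98 CPM. The Hoxb genes 5 to 9 summed to 65.8 to 325 CPM, highest in ceAF-1, with Hoxb9 the most abundant, and the distal Hox genes, with Hoxb13 the most abundant, were lowest in ceAF-1 and ceAF-4 and highest in ceAF-2 and ceAF-3, so both extremes held a mouse of each cluster. Of the 5 tested distal Hox genes, 0 had a Hoxb6 slope at an unadjusted p under 0.05 in edgeR, and 0 after adjustment. Over all genes, 10.1% had a slope above 0 and 8.55% a slope below 0 at that unadjusted limit. Between the treatment groups the median log2 fold change of the distal Hox genes was 1.23. Of the 5, 1 was higher in the ceAF group at an unadjusted p under 0.05, beside 6.93% of all genes, and 0 after adjustment. Their sums overlapped between groups, at 148 to 304 CPM in the DSS mice and 22.7, 449, 352, 98.7 and 275 CPM in ceAF-1 to ceAF-5. The part of this in the results was not tested. The gap between the clusters took 0.379 of the range on the log2 scale. Each cluster held mice of both groups, 3 DSS and 2 ceAF mice in the higher and 2 DSS and 3 ceAF mice in the lower one, and no correlation coefficient with Hoxb6 is given because neither cluster has enough mice.

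Along Hoxb6, 3 of the transport genes had a fitted slope above 0 and 7 below 0, and only that of Car1 passed after adjustment. With treatment group kept in the fit, 415 of 16544 genes (2.51%) had a Hoxb6 slope at an adjusted p under 0.05 by edgeR quasi-likelihood, 347 of them (2.1% of genes) above 0. The number was 45 without ceAF-1, 715 without ceAF-3 and 718 without DSS-1, and between 188 and 268 without DSS-2, DSS-3, DSS-4, ceAF-2 or ceAF-5. At an unadjusted p under 0.05, 2 of the 10 had a slope above 0, beside 10.1% of all genes, and 3 had a slope below 0, beside 8.55% of all genes. A slope is the change in log2 level per 1 unit of log2 Hoxb6 CPM. The median slope was −0.13 over the 10 genes and −0.0068 over all genes.

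Car1 had a slope of 0.68 ± 0.10 (SE) and an adjusted p of 0.00599 (edgeR quasi-likelihood, Benjamini-Hochberg). Each of the 5 mice of higher Hoxb6, at 3344 to 11922 CPM of Car1, exceeded each of the other 5, at 115 to 1118 CPM. The slope kept its sign in all 18 alternatives, but the call was lost in 4 of them. These were the fit without ceAF-1 (slope 0.67, adjusted p = 0.114 by edgeR) and the replicate block (slope 0.60, adjusted p = 0.0975). A fit with the Hoxb6 cluster as a further term (slope 0.60, adjusted p = 0.402) also lost it. So did the distal Hox genes, taken with opposite sign, as the marker (slope 0.18, adjusted p = 0.973). With the sign turned, a slope above 0 means a higher level where the distal Hox genes are lower. Over the fits that left out 1 mouse, the adjusted p ranged from 0.000617 to 0.114, and over the other alternatives from 8.12e-13 to 0.973. Guca2a also had a slope above 0, of 0.21 ± 0.084 (SE), with an unadjusted p of 0.0284 and an adjusted p of 0.211 in the edgeR test. Its unadjusted p was 0.316 without ceAF-1, 0.0509 without DSS-4 and 0.0773 without ceAF-5, and without DSS-1 its adjusted p was 0.0418 (range 0.0418 to 0.870 over its 18 alternatives).

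Slopes below 0 belonged to Slc26a3 (−0.16 ± 0.047 (SE), unadjusted p = 0.00585), Scnn1a (−0.20 ± 0.070 (SE), unadjusted p = 0.0180) and Scnn1b (−0.26 ± 0.065 (SE), unadjusted p = 0.00218), with adjusted p-values of 0.104, 0.175 and 0.0667 in the same edgeR test. DESeq2's Wald test called all 3 after adjustment (0.0122, 0.0387 and 0.00155), and the mean of the Hoxb genes 5 to 9 as the marker called Scnn1b (0.0398). For Scnn1a the unadjusted p was 0.0666 without DSS-5 and 0.0985 without ceAF-1. Scnn1g had a steeper but less certain slope of −0.29 ± 0.16 (SE), with an unadjusted p of 0.101. ceAF-3 was highest for Scnn1g, at 28.4 CPM, although its Hoxb6 was in the higher cluster, and without it the slope was −0.53 with an adjusted p of 0.0121 in the edgeR test (range 0.0121 to 0.744 over its 18 alternatives). Without ceAF-3 the adjusted p of Scnn1a was 0.0413 (range 0.0144 to 0.834) and that of Scnn1b 0.00181 (range 0.00155 to 0.949). Without DSS-1 that of Slc26a3 was 0.0323 (range 0.0122 to 0.837). For Aqp8, Slc9a3, Car4 and Cftr the slopes of −0.10, −0.081, −0.15 and 0.035 had unadjusted p-values of 0.163, 0.274, 0.0512 and 0.148. Over the fits without 1 mouse, the slope of Aqp8 ranged from −0.16 to −0.0027 and that of Slc9a3 from −0.18 to −0.023. That of Car4 ranged from −0.22 to −0.11 and that of Cftr from 0.024 to 0.053. The unadjusted p of Car4 was under 0.05 without DSS-1, DSS-4 or ceAF-1, that of Aqp8 without DSS-5 and that of Cftr without ceAF-5. It was also under 0.05 for Car4 with upper quartile normalization (0.0432) and in DESeq2's Wald test (0.0252), and for Cftr with the replicate block (0.0420). With the replicate block the slope of Car4 was −6.06e-05, with an unadjusted edgeR p of 0.999.

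Since the mice lay in clusters, these slopes largely compare the clusters. In a fit chosen after seeing the data, with the cluster as a further term, the slope of Car1 within clusters was 0.60 and no longer passed (unadjusted p of 0.0966 and adjusted p of 0.402 by edgeR, range 8.12e-13 to 0.973 over its 18 alternatives). Those of Scnn1a (−0.85, adjusted p of 0.0144) and Scnn1g (−1.81, adjusted p of 0.0360) were among the 165 slopes that passed, with the ranges given above. Aqp8 (−0.61), Slc26a3 (−0.47), Scnn1b (−0.61) and Guca2a (0.68) had an unadjusted p under 0.05 only, which makes 6 of the 10 at that limit beside 15.9% of all genes in this fit. Each cluster held 5 mice, ceAF-1 and ceAF-4 had the highest Hoxb6 of theirs, and whether these calls depend on 1 mouse was not tested. At equal Hoxb6, that is, with Hoxb6 as a covariate of the group comparison, 1 of the 10 genes had an unadjusted edgeR p under 0.05, beside 9.02% of all genes. It was Cftr, with a log2 fold change of 0.26 ± 0.11 (SE), an unadjusted p of 0.0394 and an adjusted p of 0.544 by edgeR. The gene depended on single mice: without DSS-1, DSS-3 or ceAF-5 the gene was Car4 in place of Cftr, and without ceAF-1 it was Aqp8. The count was 0 without ceAF-4 and 3 without ceAF-3. Without ceAF-3, Scnn1b (−0.86), Scnn1g (−1.16) and Cftr (0.29) were under that limit, with these log2 fold changes. Their adjusted p-values by edgeR were 0.257, 0.380 and 0.449. With all mice, the log2 fold change of Scnn1g at equal Hoxb6 was 0.35, of the other sign. The share of all genes at that limit is not given for the fits without 1 mouse, so these counts cannot be set against it.

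**Figure D3:**
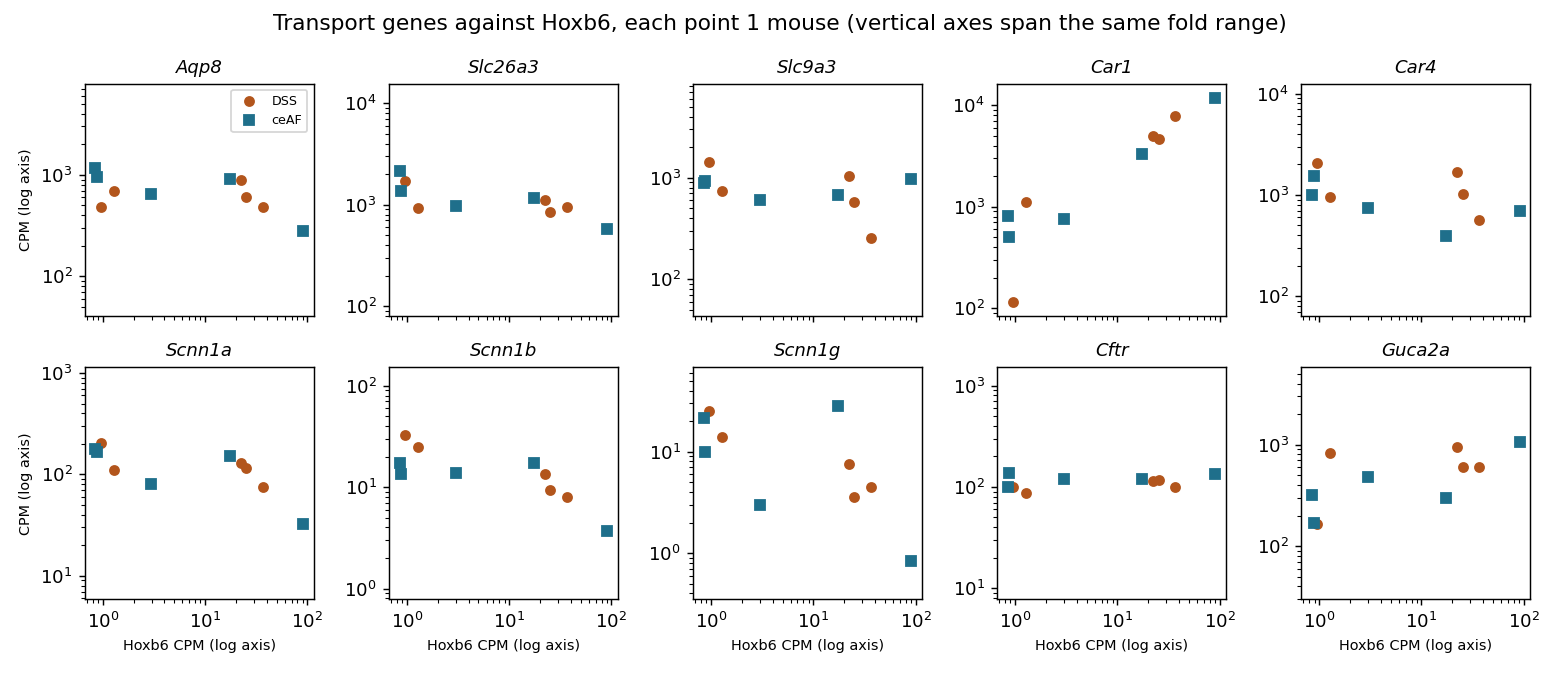
CPM of each transport gene against CPM of Hoxb6, both on log axes, with 1 point per mouse, circles for DSS and squares for ceAF. The vertical axes span the same fold range, and Car1 is higher in the 5 mice above the gap in Hoxb6 than in the 5 below it.

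Of 62 tested genes in 7 lists of related transport, 2 were higher and 1 lower in the ceAF group at an unadjusted p under 0.05, near the share of 6.93% over all genes, and 0 passed after adjustment (edgeR quasi-likelihood, Benjamini-Hochberg). Their median log2 fold change was 0.064. The 3 were Wnk4, a kinase that regulates ion transport, with a log2 fold change of 0.46 ± 0.16 (SE), the carbonic anhydrase gene Car14 (1.00 ± 0.31) and the sodium pump subunit gene Atp1b3 (−0.28 ± 0.11). Car14 was barely expressed, at 0.360 to 1.82 CPM. Wnk4 was at 28.4, 29.1, 23.0, 38.9 and 22.3 CPM in DSS-1 to DSS-5 and 37.5, 37.3, 33.7, 46.4 and 40.5 CPM in ceAF-1 to ceAF-5, and only DSS-4 lay among the ceAF mice. Atp1b3 was at 88.5, 62.7, 65.1, 63.9 and 64.8 CPM in the DSS mice and 57.5, 58.0, 56.6, 55.8 and 56.5 CPM in the ceAF mice. The groups did not overlap in 2 of the 62 genes, Atp1b3, lower in all 5 ceAF mice, and Car14, higher in all 5, beside 1.24% of all genes.

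Along Hoxb6, 16 of these 62 genes had a slope above 0 and 8 a slope below 0 at an unadjusted p under 0.05, beside 10.1% and 8.55% of all genes, and 6 passed after adjustment, all above 0, beside 2.1% of all genes. Prkg2, the kinase that carries the guanylin signal to transporters, had the steepest of the 6, at 0.56 ± 0.066 (SE, adjusted p = 0.00206 by edgeR quasi-likelihood after Benjamini-Hochberg adjustment), and its level ran from 3.60 to 89.5 CPM. Others were the aquaporin gene Aqp11 (0.26 ± 0.036), the glucocorticoid receptor gene Nr3c1 (0.17 ± 0.026), the anion exchanger gene Slc4a2 (0.19 ± 0.038) and the NHE3 partner gene Chp1 (0.14 ± 0.025). By list, 1 of 13 genes of ENaC regulation passed, 2 of 12 of the sodium pump and basolateral transport, 0 of 14 of other apical ion transport, 1 of 6 NHE3 scaffold genes, 1 of 6 of guanylin signaling, 0 of 8 other carbonic anhydrases and 1 of 3 other aquaporins.

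The 8 slopes below 0 at an unadjusted p under 0.05 did not pass after adjustment in the edgeR test. In the list of other apical ion transport 3 were below 0. They were those of Clca4b (−0.35), the bestrophin gene Best2 (−0.30) and the potassium channel gene Kcnma1 (−0.070). In the same list 2 were above 0 at that limit, that of the exchanger gene Slc9a2 (0.18) among them. Hsd11b2, the enzyme gene that keeps glucocorticoids from the mineralocorticoid receptor and the most abundant of ENaC regulation, had a slope of −0.11, and Fxyd4, a sodium pump regulator, of −0.78. Fxyd4 reached 103 CPM in DSS-5 and 0.0597 to 6.49 CPM in the other mice. Aqp4, the most abundant of the other aquaporins, had a slope of −0.27, opposite in sign to that of Aqp11, and ran from 115 CPM in ceAF-1 to 862 CPM in ceAF-5.

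The most abundant gene of each list was found by mean FPKM. It was Atp1b1 of the sodium pump (633), Clca4b in the list of other apical ion transport (502) and Car2 of the carbonic anhydrases (339). In the remaining lists it was Ezr of the NHE3 scaffolds (270.3), Hsd11b2 of ENaC regulation (129), Aqp4 of the aquaporins (84.6) and Gucy2c of guanylin signaling (71.4). None of these 7 was above the mean FPKM of Car1 (2778). At an unadjusted p under 0.05 alone, slopes above 0 also belonged to the carbonic anhydrase genes Car3 (0.36), Car8 (0.23), Car12 (0.23) and Car13 (0.10), and Car2 had a slope of −0.041 that did not pass that limit. Slopes above 0 at this limit were also those of Pdzd3 (0.095) and Slc9a3r1 (0.11) of the NHE3 scaffolds, of the bicarbonate cotransporter gene Slc4a4 (0.18) and of Gucy2c (0.083), whereas those of Chp2 (−0.10) and Abcc4 (−0.20) were below 0.

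Some markers of other cells also had slopes along Hoxb6, and their part in the slopes of the transport genes was not tested. Over all genes, 10.1% had a slope above 0 and 8.55% a slope below 0 at an unadjusted p under 0.05 in edgeR. Between groups, 6.93% of all genes were at that limit. After adjustment, 2.1% of all genes had a slope above 0, and 68 of 16544 had a slope below 0. Counts for the crypt base and cycling markers and the goblet cell markers lay near these shares. All 6 smooth muscle markers had a slope below 0 at an unadjusted p under 0.05, 4 of them after adjustment in edgeR's test, and Actg2 was the most abundant. They summed to 2368, 2105, 1487, 1278 and 2709 CPM in DSS-1 to DSS-5 and to 1207, 2875, 1150.4, 1407 and 2282 CPM in ceAF-1 to ceAF-5. Of 4 tested small intestinal markers, 3 had a slope above 0 at an unadjusted p under 0.05 and 2 after adjustment, with Fabp2 the most abundant. The sums of the small intestinal markers in DSS-1 to DSS-5 were 202, 725, 586, 626 and 75.4 CPM, and in ceAF-1 to ceAF-5 1362, 132, 319.8, 266 and 93.3 CPM. Between the treatment groups, 5 of 9 leukocyte markers were lower in the ceAF group at an unadjusted p under 0.05, and 0 after adjustment. They summed to 1793, 237, 402, 229 and 227 CPM in the DSS mice and to 75.6, 199, 235, 149 and 278 CPM in the ceAF mice, and 4 of the 9 had a Hoxb6 slope below 0 at that limit. Of 12 surface colonocyte markers 0 had an unadjusted p under 0.05 between groups, whereas 3 had a Hoxb6 slope above 0 at that limit, 1 of them after adjustment. Hoxb6 slopes at that limit were above 0 for 3 of 10 epithelial markers. They were below 0 for 2 of 6 fibroblast markers (161 to 1072 CPM in sum, Col3a1 the most abundant). Of 8 crypt base and cycling markers, 1 was above and 1 below 0 (200.2 to 494 CPM, Pcna the most abundant), and 1 of 7 goblet cell markers was below 0 (5391 to 17759 CPM, lowest in ceAF-1, Zg16 the most abundant). Between the treatment groups, 1 crypt base and cycling marker was higher and 1 goblet cell marker lower in the ceAF group at an unadjusted p under 0.05. No listed marker was at 0 in all 10 mice.

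Likeness between genes was measured by Pearson's r of log2 CPM over the 10 mice, ranked over the 16354 other tested genes with a symbol, as a description in which the Hoxb6 clusters and libraries such as ceAF-1 and DSS-5 enter every value. Scnn1a ranked 32 and Scnn1b 69 for Scnn1g, with r of 0.90 and 0.87. Slc26a3 had r of 0.87 with Scnn1a, 0.82 with Scnn1g and 0.72 with Scnn1b, which ranked 66, 239 and 787 for it. Guca2a ranked 748 for Car1 (r = 0.77), and Car1 ran opposite to Scnn1b (r = −0.80). Slc9a3 was nearest to Car4 among the 10, which ranked 203 (r = 0.65).

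The closest genes outside the list differed for each. For Car1 they were Cyp2c55 (0.98), Crim1 (0.98) and Mxi1 (0.98). For Guca2a they were Sirt7 (0.98), Cdx2 (0.98) and Mthfsl (0.97), and Cdx2, an intestinal transcription factor gene, ran from 66.1 CPM in DSS-5 to 308 CPM in ceAF-1. For Scnn1a they were Ssrp1 (0.98), Nans (0.98) and Dcps (0.97), for Scnn1b Bhlha15 (0.98), Itga5 (0.96) and Eln (0.96), and for Scnn1g Fnip2 (0.95), Vegfc (0.95) and Dnaaf2 (0.94). Aqp8 was closest to Ptgr1 (0.95), Lmna (0.94) and Ssbp3 (0.93), Slc26a3 to Lamtor3 (0.96), and Slc9a3 to Inca1 (0.93), Rdh13 (0.88) and Lad1 (0.87). Car4 was closest to Mrpl36 (0.96), Krtap3-1 (0.91) and Mocs3 (0.89) and Cftr to Gm12537 (0.91), B130034C11Rik (0.90) and Zfp976 (0.90).

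Promoters from RefSeq (build GRCm38.p6), which run from 250 bases before to 50 bases after the gene's start, matched 8 of the 10 genes, and Car1 and Scnn1a had none in the table. They were searched on both strands for the letters ACANNNTGT of a steroid receptor element, TTTATNG of Cdx factors and CAAAGNCCA of Hnf4, which 6.85%, 10.9% and 1.98% of all 32851 promoters hold. The Cdx letters occurred in Aqp8 and, on the opposite strand, in Car4, and none of the 3 occurred in the windows of the other 6, which says only that these letters are not there. Those of Scnn1b (chr7:121864788-121865087) and Scnn1g (chr7:121734229-121734528) are shown because their genes varied together. That of Guca2a (chr4:119637482-119637781) is shown because Cdx2 was among its 3 closest genes by r, although it holds no Cdx letters. Whether Cdx2 acts on Guca2a was not tested. That of Aqp8 (chr7:123462044-123462343) is shown for its match. All 4 are on the plus strand, 5′ to 3′, with a match in capitals.
Scnn1b: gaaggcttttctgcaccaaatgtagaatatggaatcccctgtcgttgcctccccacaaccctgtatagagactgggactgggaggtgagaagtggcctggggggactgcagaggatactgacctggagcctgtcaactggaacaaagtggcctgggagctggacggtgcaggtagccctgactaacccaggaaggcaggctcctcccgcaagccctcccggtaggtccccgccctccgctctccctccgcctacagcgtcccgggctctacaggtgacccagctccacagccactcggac
Scnn1g: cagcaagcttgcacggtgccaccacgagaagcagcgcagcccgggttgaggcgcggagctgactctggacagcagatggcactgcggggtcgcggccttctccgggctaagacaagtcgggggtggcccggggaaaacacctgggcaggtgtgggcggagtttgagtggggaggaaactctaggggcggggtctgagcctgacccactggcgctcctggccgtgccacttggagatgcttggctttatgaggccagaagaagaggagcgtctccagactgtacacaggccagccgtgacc
Guca2a: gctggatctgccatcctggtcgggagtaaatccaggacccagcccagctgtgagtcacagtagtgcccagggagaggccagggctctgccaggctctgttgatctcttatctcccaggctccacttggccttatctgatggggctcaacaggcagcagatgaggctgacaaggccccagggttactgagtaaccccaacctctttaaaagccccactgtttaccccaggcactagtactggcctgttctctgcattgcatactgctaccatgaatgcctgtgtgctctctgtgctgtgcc
Aqp8: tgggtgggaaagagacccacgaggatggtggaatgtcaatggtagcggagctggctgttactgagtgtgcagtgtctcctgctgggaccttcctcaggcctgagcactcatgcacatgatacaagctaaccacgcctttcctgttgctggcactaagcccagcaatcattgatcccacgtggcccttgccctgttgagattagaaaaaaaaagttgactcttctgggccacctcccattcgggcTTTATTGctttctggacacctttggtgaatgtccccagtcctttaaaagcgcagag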

How the data were processed

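Poly(A)-selected RNA from the colon of 10 mice was sequenced, 1 library per mouse, 5 per group as their labels give. The read count values per gene are used as deposited. The authors' notes name cutadapt 1.9.1 and HISAT2 2.2.1, while the counting program, its use of strand and the genome build are not given in the sources used here. The deposited FPKM values were checked to equal count over exonic length and library total within 0.005 for 100% of values. Of the 56691 genes, 2639 have no symbol.

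Counts were analysed in R 4.3.3 with edgeR 4.0.16 (filterByExpr with a minimum count of 10, TMM, prior count 1, two-sided quasi-likelihood tests, Benjamini-Hochberg adjustment over all 16545 genes kept). Slopes came from a fit of group plus centred log2 CPM of Hoxb6. Single genes were compared by two-sided exact permutation tests of mean log2 CPM. Alternatives used DESeq2 1.42.0, limma 3.58.1, other filters, normalizations and position markers, the replicate number as a block, and fits without each mouse. Figures and promoter searches used Python 3.11.15, pandas 2.3.3 and matplotlib 3.10.9. The calculations were tested on simulated data. The 20 pairs of libraries within groups differed beyond counting noise.

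Named genes are the 10 transport genes and Hoxb6. From each list of related transport genes, those with an unadjusted p under 0.05 between groups or along Hoxb6 (at most 4 per fit) and the most abundant by FPKM are named, and from each marker list the most abundant. For each of the 10 genes, up to 3 genes of highest Pearson's r over the mice are named. Not every gene that meets these rules is printed. The 10 genes and the lists were chosen with earlier results of these data known.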

Additional observations from a re-analysis of the deposited data

Results flagged for a closer look

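For the 10 transport genes and Hoxb6, the distance of the highest or lowest mouse of a group from the next was divided by that group's range, both on the log2 CPM scale. Of the 22 groups of values, 2 exceeded 0.71, the 95% critical value of Dixon's ratio for 5 samples, where chance alone gives about 1 in 20 (1.1 of 22).

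Scnn1b in ceAF-1 was at 3.66 CPM, against 13.5 to 17.3 CPM in the other 4 ceAF mice, a gap of 0.840 of the range of log2 CPM. Guca2a in DSS-5 was at 163 CPM, against 595 to 957 CPM in the other 4 DSS mice, a gap of 0.731 of the range of log2 CPM.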

How the results depend on the processing

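For single transport genes, 176 of 200 alternative log2 fold changes kept their sign and 24 reversed it. Those that reversed belonged to Slc9a3 (−0.0036 with DESeq2's size factors in edgeR and −0.0036 in DESeq2's Wald test) and Scnn1g (−0.029 with limma-trend on log2(FPKM + 1) with and without the filter, −0.24 on log2(FPKM + 0.1), and −0.23 with the replicate block), and otherwise to fits without 1 mouse. Over those fits Slc26a3 ranged from −0.11 to 0.39, Slc9a3 from −0.22 to 0.33, Car1 from −1.46 to 0.37, Scnn1a from −0.23 to 0.19 and Scnn1g from −0.30 to 0.81.

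The number of genes called between groups was 30 in DESeq2's Wald test, 1 with limma-trend without the filter, 0 to 3 without 1 mouse, and 0 in the other alternatives, the replicate block included. The number of transport genes at an unadjusted p under 0.05 was 1 with Hoxb6 as a covariate (Cftr, beside 9.02% of all genes), 1 with the replicate block (Car4, beside 4.19%) and 0 to 2 without 1 mouse. At equal Hoxb6 it was 0 to 3 without 1 mouse, and the share of all genes in those fits is not given.

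Of 180 alternative Hoxb6 slopes, 163 kept their sign and side of the threshold, 4 no longer passed, 11 newly passed and 2 reversed. Those reversed were Car4 with the distal Hox genes as marker (0.010) and Slc9a3 with the replicate block (0.0099). As a marker, the distal Hox genes were taken with opposite sign. Genes called along Hoxb6 numbered 1224 in DESeq2's Wald test, 0 with the distal Hox genes, 95 with the replicate block, 165 within clusters, a fit chosen after seeing the data, and 45 to 718 without 1 mouse. With the distal Hox genes, 1 transport gene (Scnn1g) had an unadjusted p under 0.05, beside 6.17% of all genes. The cause was not tested for any of these.

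Replicate numbers recur in both groups. Mice of the same number correlated at −0.25, −0.14, −0.0043, −0.16 and 0.29 over genes after centring by group, and only DSS-5 correlated best with the ceAF mouse of its own number, so the numbers were not read as pairs. Whether p-values reflect separate mice rests on the labels.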
